A study of Homo sapiens with 36 samples.

Results

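The 7 genes described here are ligands and receptors of the epidermal growth factor receptor (EGFR) system, AREG, EREG, HBEGF, TGFA and BTC on the ligand side and EGFR and ERBB2 on the receptor side. They were picked by their gene symbols, with earlier results of these data known, and all 7 were found among the 60675 genes of the expression table. Their RNA was measured in 2 human cell lines, the astrocytoma line SW1783 and the colorectal adenocarcinoma line HT29, after 24 h with ACD, the water extract of the processed root of Aconitum carmichaeli Debeaux, or with wortmannin, which blocks the kinase PI3K. The study compared a brain-derived with a gut-derived line to ask where ACD acts more.

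Each line had 6 groups of 3 replicates, so that 36 libraries in 12 groups were compared. Batch A held a vehicle group (0.1% DMSO by the labels) and a group given 10 µM wortmannin, the positive control. Batch B held a vehicle group of its own and ACD at 20 (low), 100 (medium) and 500 (high) µg/mL. SW1783 was grown in Leibovitz's L-15 medium without added CO2 and HT29 in DMEM with CO2, both with serum, so that cell line and medium cannot be told apart. Neither line carried an engineered allele.

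Ligands of this family are made as membrane-anchored precursors, which proteases such as ADAM17 cut to release the soluble growth factor. Amphiregulin (AREG), epiregulin (EREG), heparin-binding EGF-like growth factor (HBEGF), transforming growth factor alpha (TGFA) and betacellulin (BTC) bind EGFR, and HBEGF, EREG and BTC also bind ERBB4. ERBB2 has no known ligand of its own and acts as the partner of a ligand-bound receptor. Signalling runs through adaptors to the kinase ERK, whose target genes include ligands and inhibitors of the same system, and in colon epithelium and glia the system is known for its part in growth and repair.

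All 7 genes are protein-coding, and their positions on GRCh38 in the GENCODE v44 annotation are as follows. AREG (ENSG00000109321) lies at chr4:74445136-74455005 and EREG (ENSG00000124882) at chr4:74365145-74388749, both on the plus strand. BTC (ENSG00000174808) lies on the minus strand at chr4:74744759-74794523. The first exons of EREG and AREG begin 80.0 kb apart, and that of BTC a further 349.4 kb on. HBEGF (ENSG00000113070) lies at chr5:140332843-140346603 on the minus strand, TGFA (ENSG00000163235) at chr2:70447284-70554193 on the minus strand, EGFR (ENSG00000146648) at chr7:55019017-55211628 on the plus strand and ERBB2 (ENSG00000141736) at chr17:39687914-39730426 on the plus strand. TGFA and ERBB2 each overlap 1 other annotated gene on the same strand, so reads there may be shared.

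The bases upstream of AREG and EREG are shown because these neighbouring genes were the 2 ligands with the largest rise at the high dose in HT29, where BTC was also called, while AREG was at or near 0 in SW1783. Both are the 250 bases before the RefSeq transcription start on the plus strand of GRCh38.p14, AREG at chr4:74444886-74445135 and EREG at chr4:74364895-74365144. Capitals mark a match to TGACGTCA, the consensus of the cyclic AMP response element (CRE), and all other bases are in lower case.
AREG: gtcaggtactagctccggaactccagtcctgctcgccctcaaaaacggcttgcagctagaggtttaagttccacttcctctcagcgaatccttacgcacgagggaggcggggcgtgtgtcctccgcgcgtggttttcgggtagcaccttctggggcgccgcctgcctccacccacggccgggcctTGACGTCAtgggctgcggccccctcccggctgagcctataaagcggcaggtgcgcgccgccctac
EREG: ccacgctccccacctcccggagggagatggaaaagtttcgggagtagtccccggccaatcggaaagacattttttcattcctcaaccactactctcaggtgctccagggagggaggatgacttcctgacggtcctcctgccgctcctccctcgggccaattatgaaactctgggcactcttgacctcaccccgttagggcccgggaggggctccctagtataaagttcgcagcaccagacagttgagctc

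The AREG window held 1 such match, with its first base 65 bases before the start. Both strands were searched over 250 bases before to 50 bases after each start, and 1.85% of the 35116 human windows of that length held it. No window of the other 6 members did. The letters TGANTCA, the AP-1 consensus, which does not overlap the CRE letters in any window of a member, were in 7.71% of all windows, among them the window of ERBB2 and the second of the 2 EGFR windows. A match is a string of letters and not a measured binding site.

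Total counts per library lay between 15941276 and 33866683, so that a count of 0 allowed up to 0.0886 to 0.188 CPM (counts scaled to equal library totals), for counting error only. Replicate 2 of the high dose in HT29 stood apart from its group, with a chi-square per degree of freedom of up to 65.1 against its replicates, where 1 is sampling noise, and results that rest on it are given with and without it. Equally numbered vehicles of batch A and batch B differed less (1.44 to 1.61) than replicates within any group (1.65 or more), so they may not be independent cultures. HT29 carried its epithelial markers, with EPCAM, CDH1, KRT20, VIL1, CDX2 and KRT18 above 1 CPM in all 18 libraries. In SW1783 the defining glial markers GFAP, S100B, AQP4 and SOX2 were under 1 CPM in all 18 libraries and OLIG2 exceeded 1 CPM in 2, while NES was at 2.74 to 11.3 CPM, VIM at 4076 to 4975 CPM and FN1 at 4900 to 7718 CPM. Of the 6 epithelial markers, KRT18 alone passed 1 CPM in SW1783, at 68.7 to 250 CPM. The share of counts from mitochondrial ribosomal RNA had a mean of 0.932% in the SW1783 vehicle of batch B, then 3.14%, 7.83% and 5.93% with rising dose, and in HT29 1.18%, 1.09%, 2.10% and 11.96% (n = 3 each). Its part in the results was not tested. All calls on the 7 genes were the same with the mitochondrial genes left out. That setting only drops the rows of those genes and cannot show whether the share played a part.

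Values are RSEM expected counts divided by DESeq2 size factors over all 36 libraries, termed normalized counts. Fold changes and adjusted p-values are those of the DESeq2 Wald test over all genes of a contrast, and a gene was called when its adjusted p-value was under 0.05 and its change over 1.5-fold. Since the labels do not say that replicates came from separate cultures, p-values measure the spread between these libraries. Fewer expressing cells and less RNA per cell cannot be told apart in bulk RNA.

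The lines differed in their leading ligand, HBEGF in SW1783 and AREG in HT29, while TGFA took a similar share in both. Genes are set against each other as normalized counts per kb of the canonical transcript, in vehicle of batch B (n = 3). In SW1783, EGFR stood highest at 754 ± 26.1 (SD), followed by ERBB2 at 476 ± 14.9, HBEGF at 278 ± 20.6, TGFA at 85.1 ± 2.37, EREG at 10.3 ± 1.19 and BTC at 1.88 ± 0.208 counts per kb. On this length no 2 neighbours in that order overlapped in their libraries. In HT29, ERBB2 was at 743 ± 18.3 and AREG at 730 ± 107 counts per kb, which did not differ beyond their spread. TGFA at 403 ± 23.8 and EREG at 384 ± 26.5 counts per kb also overlapped, and EGFR at 285 ± 51.0, HBEGF at 74.3 ± 2.42 and BTC at 35.4 ± 3.90 followed. With the length of all annotated exons in place of the canonical transcript the HT29 order became AREG at 549, TGFA at 338, ERBB2 at 328, EREG at 311 and EGFR at 177 counts per kb, and in SW1783 HBEGF at 219 stood above ERBB2 at 210 counts per kb, so the place of ERBB2 depends on the length used in both lines.

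Summed over the 5 ligands per kb, HBEGF made up 74.0% ± 1.3 (SD, n = 3) of the ligand RNA in SW1783 vehicle and TGFA 22.7% ± 0.847. In HT29 vehicle AREG made up 44.7% ± 4.82, TGFA 24.8% ± 2.23 and EREG 23.7% ± 2.09, whereas HBEGF was at 4.57% ± 0.291. The sum itself was 375 ± 21.8 counts per kb in SW1783 and 1628 ± 71.5 in HT29.

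**Figure D1:**
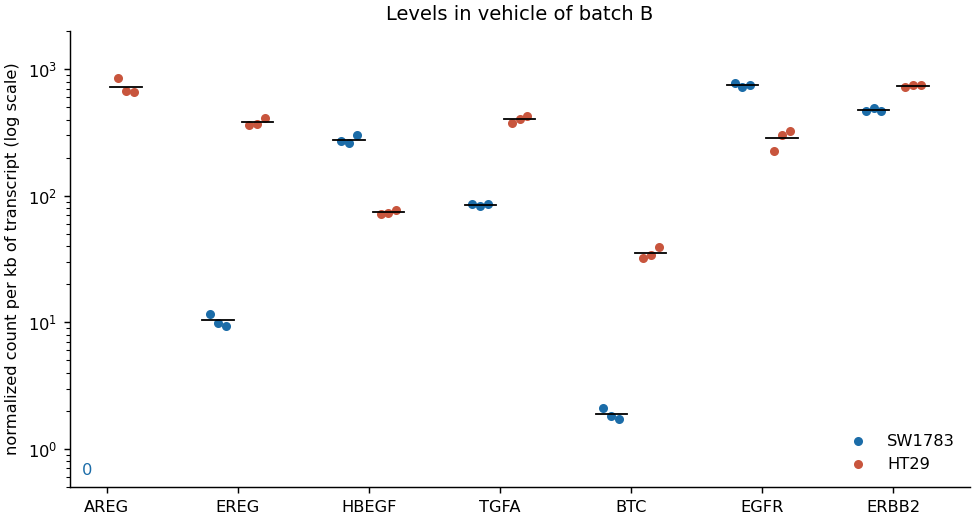
Normalized counts per kb of canonical transcript (log scale) of the 7 genes in the 3 vehicle libraries of batch B of SW1783 (blue) and HT29 (red), with points for libraries and lines for means. HBEGF and EGFR sat higher in SW1783 and the other 5 genes higher in HT29, with AREG at 0 in the SW1783 vehicle libraries.

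Direct tests between the vehicles of batch B called all 7 genes, 2 higher and 5 lower in SW1783, against 50.1% of all genes tested (27.2% higher, 22.9% lower), so a difference between the lines was common among all genes. HBEGF was higher in SW1783 by 1.90 ± 0.115 on the log2 scale (SE, DESeq2 adjusted p = 3.07e-60) and EGFR by 1.40 ± 0.115 (adjusted p = 4.25e-33). EREG was lower in SW1783 by a log2 fold change of -5.22 ± 0.151, BTC by -4.24 ± 0.457, TGFA by -2.25 ± 0.0867 and ERBB2 by -0.64 ± 0.0544. AREG was at 0 in 16 of 18 SW1783 libraries, with 3 counts in all. Against a floor of 3 counts per library, its vehicle mean of 901 normalized counts in HT29 was at least 280-fold higher.

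EREG was the ligand called at the high dose in both lines. HT29 vehicle libraries held 1688, 1721 and 1914 normalized counts of EREG, the low dose 2577, 2080 and 2072, the medium dose 3342, 3359 and 3237, and the high dose 4138, 3491 and 3939. Each dose lay wholly above the dose before it, and the low dose above the vehicle. EREG in HT29 rose by 1.11 ± 0.103 on the log2 scale (SE, high dose, DESeq2 adjusted p = 1.79e-24), and the medium dose gave a rise of 0.88 ± 0.103 (adjusted p = 5.74e-15). At the low dose the log2 difference of 0.32 ± 0.103 did not pass (adjusted p = 0.161). High and medium were not called apart, with a log2 difference of 0.22 and a 95% interval from 0.02 to 0.42 (DESeq2 adjusted p = 0.431). Leaving out replicate 2 of the high dose gave 1.16 ± 0.0904 at the high dose.

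In SW1783 the same gene was counted at a far lower level, with 53.9, 46.0 and 43.4 normalized counts in vehicle. The low dose held 29.4, 31.2 and 33.2, the medium dose 68.1, 65.2 and 51.5, and the high dose 95.0, 102.7 and 81.4. The low dose lay below all vehicle libraries, the medium dose overlapped them and the high dose lay above all others. At the high dose EREG rose by 0.99 ± 0.240 on the log2 scale (DESeq2 adjusted p = 0.000139) and from medium to high by 0.62 ± 0.234 (adjusted p = 0.0232). The latter call was lost without high dose replicate 1 (0.61, DESeq2 adjusted p = 0.0769) or 2 (0.54, adjusted p = 0.137), and without medium dose replicate 2 (0.66, adjusted p = 0.0562) or 3 (0.50, adjusted p = 0.156). At the low dose the log2 difference was -0.61 ± 0.272 with an unadjusted DESeq2 p of 0.0257, and DESeq2 gave no adjusted p because of the low counts.

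The size of the EREG response at the high dose was not shown to differ between the lines, with a difference (SW1783 minus HT29) of -0.16 on the log2 scale and a 95% interval from -0.56 to 0.24 (DESeq2 adjusted p = 0.646). At the low dose the difference was -0.95 ± 0.240 (adjusted p = 0.0147), the 1 member called there against 0.266% of all genes (0.161% lower). That call was lost without replicate 1 of the HT29 vehicle (-0.91, DESeq2 adjusted p = 0.0511), replicate 1 of the SW1783 vehicle (-0.86, adjusted p = 0.147), and replicate 1 (-0.91, adjusted p = 0.0944) or 2 (-0.95, adjusted p = 0.0576) of the SW1783 low dose.

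HBEGF, the leading ligand of SW1783, rose there at the high dose. Vehicle libraries held 636.6, 618.1 and 709.8 normalized counts, the low dose 591.5, 591.1 and 662.0, the medium dose 720.9, 777.2 and 685.4, and the high dose 1082, 1175 and 1155. The first 3 groups overlapped and the high dose lay above them all. HBEGF rose by 0.82 ± 0.0762 on the log2 scale against vehicle (1.77-fold, DESeq2 adjusted p = 3.69e-26) and by 0.66 ± 0.0756 against the medium dose (adjusted p = 2.56e-17), and all 13 alternatives kept both calls. Its share of the ligand RNA per kb in SW1783 went from 74.0% in vehicle to 82.3% ± 0.430 (SD, n = 3) at the high dose, with the sum of the 5 ligands at 586 ± 22.8 counts per kb.

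HBEGF in HT29 was low, with 170.2, 174.1 and 181.5 normalized counts in vehicle and 253.4, 211.8 and 239.0 at the high dose. The groups did not overlap. Its log2 difference of 0.42 ± 0.113 had a DESeq2 adjusted p of 0.00542 but stayed under the fold threshold, and edgeR gave an adjusted p of 0.061. The response of HBEGF at the high dose was larger in SW1783 by 0.36 ± 0.124 on the log2 scale (DESeq2 adjusted p = 0.015), a difference under the fold threshold for which edgeR gave an adjusted p of 0.0805.

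AREG was measurable in HT29 only, where vehicle libraries held 1053, 835.0 and 814.7 normalized counts. The low dose held 954.8, 847.3 and 859.1, the medium dose 1162, 1311 and 1203, and the high dose 1483, 2134 and 1468. The low dose overlapped the vehicle, the medium dose lay above it and the high dose above the medium. At the high dose AREG rose by 0.90 ± 0.159 on the log2 scale (DESeq2 adjusted p = 1.12e-06), and without replicate 2, the highest library, by 0.69 ± 0.105 (adjusted p = 2.53e-09). The medium dose, at 0.43 ± 0.159, did not pass (adjusted p = 0.182). In SW1783 the counts of AREG, 2 in a high dose library and 1 in a medium dose library, allowed no statement.

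TGFA, a ligand of many epithelia and the second by share in SW1783, was not called at any dose. HT29 vehicle libraries held 1563, 1662 and 1759 normalized counts of TGFA and the high dose 2231, 2009 and 2079, with no overlap. The log2 difference was 0.33 ± 0.0724 (DESeq2 adjusted p = 0.000246, edgeR adjusted p = 0.0612), under the fold threshold. In SW1783 the vehicle held 354.8, 339.2 and 357.2, the medium dose 277.3, 310.7 and 301.5, and the high dose 322.4, 328.5 and 322.8. Both doses lay below the vehicle libraries, with log2 differences of -0.23 ± 0.102 (DESeq2 adjusted p = 0.071) and -0.08 ± 0.100 (adjusted p = 0.547). The response of TGFA was lower in SW1783 than in HT29 with differences of -0.45 ± 0.103 for the high (DESeq2 adjusted p = 9.79e-05) and -0.46 ± 0.105 for the medium dose (adjusted p = 0.000367), both under the fold threshold.

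BTC was the least abundant ligand among the members in HT29, with 85.7, 90.4 and 105.5 normalized counts in vehicle and 122.1, 139.1 and 169.6 at the high dose. The groups did not overlap. BTC rose by 0.61 ± 0.182 on the log2 scale (DESeq2 adjusted p = 0.0149), close to the fold threshold. The call was lost on the 6 libraries of the compared groups alone (adjusted p = 0.139), without vehicle replicate 1 (0.55, adjusted p = 0.097) or 2 (0.58, DESeq2 adjusted p = 0.122) and without high dose replicate 3 (0.45, adjusted p = 0.169). In SW1783 BTC stayed between 3.2 and 14.1 normalized counts in all libraries. Its log2 difference at the high dose was 1.28 ± 0.656 (DESeq2 adjusted p = 0.103), whereas edgeR called it with 1.26 (adjusted p = 0.0333).

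EGFR, the receptor of all 5 ligands, was the most abundant member in SW1783 and moved little there. Vehicle libraries held 7718, 7202 and 7484 normalized counts, the low dose 7698, 7866 and 7469, the medium dose 8020, 8099 and 7960, and the high dose 8962, 8829 and 9001. The low dose overlapped the vehicle, the medium dose lay above both and the high dose above all. The log2 difference against vehicle was 0.28 ± 0.029 for the high (DESeq2 adjusted p = 5.45e-21) and 0.11 ± 0.030 at the medium dose (adjusted p = 0.00123), so that the differences passed the adjusted p but at 1.22-fold and 1.08-fold stayed under the fold threshold.

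In HT29 the EGFR value at the high dose turned on 1 library. Vehicle libraries held 2257, 2979 and 3231 normalized counts, the low dose 3517, 3339 and 3023, the medium dose 3691, 3516 and 3361, and the high dose 4221, 2023 and 4121. Replicates 1 and 3 of the high dose lay above all other libraries and replicate 2 below them all. With the 3 replicates the log2 difference was 0.27 ± 0.226 (DESeq2 adjusted p = 0.563), and without replicate 2 it was 0.54 ± 0.111 (adjusted p = 3.35e-05), still under the fold threshold. The difference between the lines moved with the same library, from -0.04 (95% interval -0.52 to 0.44, DESeq2 adjusted p = 0.948) to -0.30 ± 0.117 without it (adjusted p = 0.0304).

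ERBB2 passed neither threshold against vehicle at any dose in either line. The HT29 vehicle held 3291, 3450 and 3414 normalized counts and the high dose 3760, 2534 and 3661. Replicate 2 was again the lowest library, and the log2 difference was -0.04 ± 0.124 with it (DESeq2 adjusted p = 0.911) and 0.11 ± 0.0549 without it (adjusted p = 0.168). In SW1783 the vehicle held 2132, 2249 and 2131 and the high dose 1983, 2011 and 2137, which overlapped, with a log2 difference of -0.06 and a 95% interval from -0.16 to 0.04. The high dose of SW1783 lay below the medium dose by -0.15 ± 0.050 (DESeq2 adjusted p = 0.00897).

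**Figure D2:**
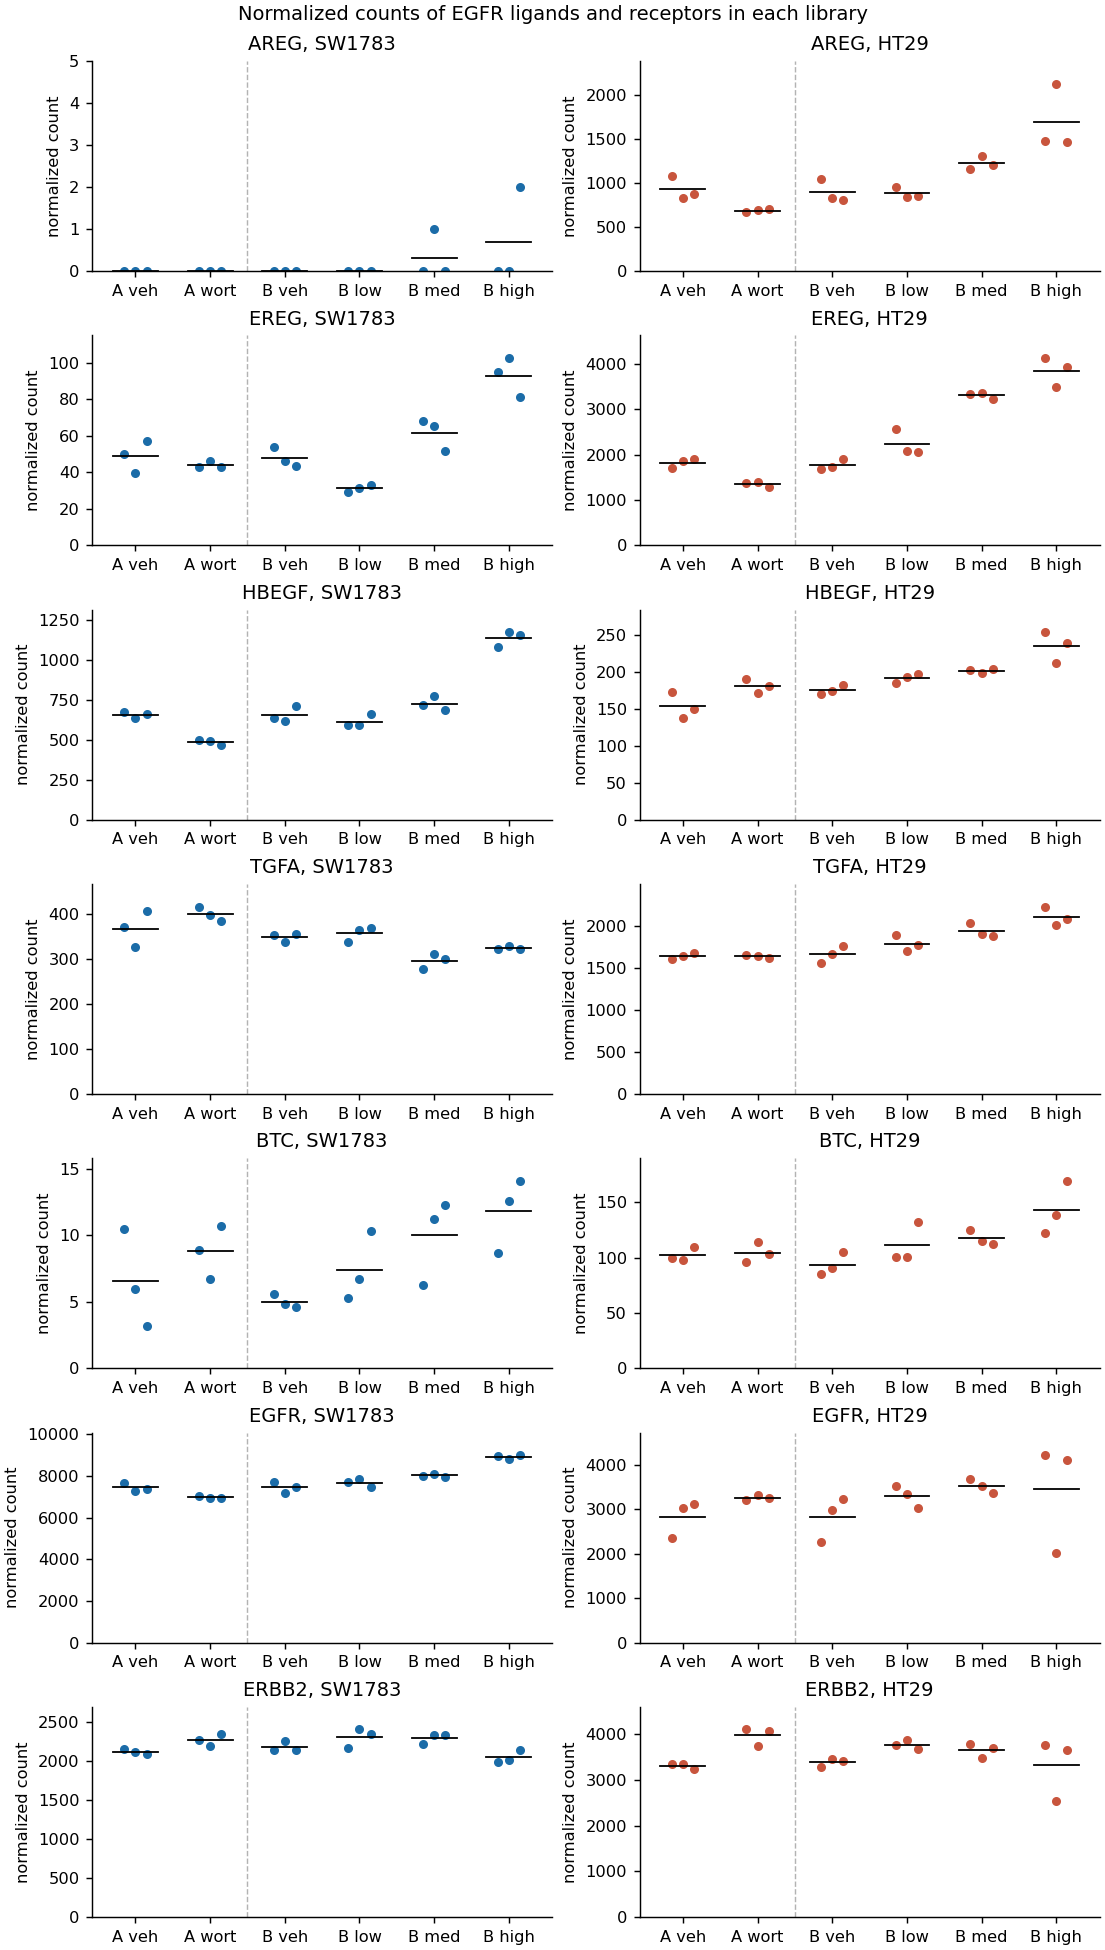
Normalized counts (linear axes from 0) of the 7 genes in each library of SW1783 (left) and HT29 (right), with points for libraries, lines for group means and a dashed line between batches A (vehicle, wortmannin) and B (vehicle, ACD low, medium and high). EREG at the high dose lay above vehicle in both lines, HBEGF separated most clearly in SW1783, and replicate 2 of the HT29 high dose was the lowest library of its group for EGFR and ERBB2.

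As counts over the members, 2 of 7 were called at the high dose in SW1783, HBEGF and EREG, both higher, where 17.6% of all genes tested were called and 8.39% called higher. In HT29 3 of 7 were called, EREG, AREG and BTC, all higher, where 3.16% of all genes were called and 1.38% were higher. The median log2 difference over the members with an adjusted p was 0.55 in SW1783, beside -0.01 over all genes tested. In HT29 it was 0.41, beside 0.01. The SW1783 median covered 6 members with unlike values. The highest was BTC at 1.28 ± 0.656, on low counts and not called, and TGFA at -0.08 and ERBB2 at -0.06 were negative. Without the fold threshold all 5 ligands passed the adjusted p in HT29 and were higher, as were 4.55% of all genes. Leaving out replicate 2 of the high dose raised the number of genes passing the adjusted p in either direction from 1266 of 14742 to 2559 of 14662, and EGFR then passed as well. At the medium dose HT29 had 1 member called, EREG, higher (0.792% of all genes called, 0.411% higher), while all 7 members had the 3 medium dose libraries above the 3 vehicle libraries, as did 16.6% of all genes. From medium to high, SW1783 had 2 members called, both higher (9.83% of all genes called, 4.42% higher).

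Passing the adjusted p alone was common. At the high dose in SW1783, 3 members passed and were higher (23.1% of all genes), at the medium dose 1 was higher (15%), and from medium to high 3 were higher (20.2%) and ERBB2 lower (19%). With wortmannin 2 were lower in SW1783 (19.2%), and in HT29 1 was higher (8.05%) and 2 lower (11.6%). For the difference between the lines 1 was higher (12.6%) and 1 lower (15%) at the high dose, 1 lower at the medium dose (6.53%) and 2 lower with wortmannin (9.96%).

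Members whose libraries did not overlap between groups were also counted. The shares in brackets are of the genes with an adjusted p. In SW1783 the counts include BTC at the medium and EREG at the low dose, which had no adjusted p. In SW1783 at the high dose 4 members lay wholly above (28.3% of all genes) and 1 below (30.8%), at the medium dose 2 above (24%) and 1 below (26.2%), and at the low dose 1 below (12.3%). From medium to high 4 lay above (26.1%) and 1 below (29.3%), and with wortmannin 1 above (26.4%) and 2 below (27.7%). In HT29 5 lay above at the high dose (12.5%), 3 at the low dose (13.9%) and 3 from medium to high (8.7%), and with wortmannin 2 lay above (24.6%) and 2 below (20.3%).

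Several contrasts had 0 members called by DESeq2, and edgeR also called 0 in each. These were the medium dose in SW1783 (3 members at an unadjusted p under 0.05, 3.82% of all genes called), the low dose in SW1783 (1 member, 0.118%) and in HT29 (1 member, 0.287%), and the step from medium to high in HT29 (3 members, 0.699%). The vehicles of batch A and B had 0 members called in SW1783 (0 members at an unadjusted p under 0.05, 0.00348% of all genes called) and in HT29 (0 members, 0% of all genes). Equally numbered vehicles may not be independent cultures, so this contrast cannot show whether the batches differ. The test of the difference between the lines called 0 members at the high dose (2 members at an unadjusted p under 0.05, 14.6% of all genes called) and at the medium dose (2 members, 3.43%).

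**Figure D3:**
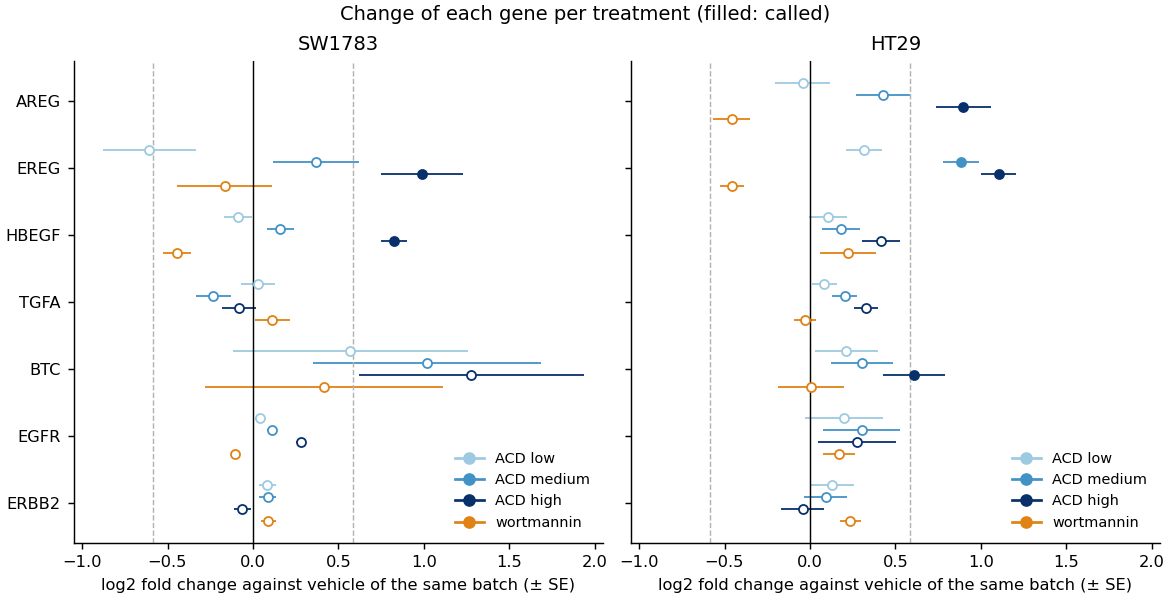
Log2 fold change (± SE) of each gene against the vehicle of its own batch in SW1783 (left) and HT29 (right) for the 3 ACD doses (blue shades) and wortmannin (orange), with filled points for called values, dashed lines at 1.5-fold, and AREG left out in SW1783 because its counts were at or near 0. Filled points are HBEGF and EREG at the high dose in SW1783, AREG, EREG and BTC at the high dose in HT29, and EREG at the medium dose in HT29.

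Wortmannin was compared with the vehicle of batch A. No member was called by DESeq2 or by edgeR in either line, where 2.71% of all genes were called in SW1783 (3 members at an unadjusted p under 0.05) and 2.74% in HT29 (3 members). Differences under the fold threshold went the other way from ACD in the leading ligand of SW1783 and in the AREG and EREG pair of HT29. HBEGF in SW1783 was at 676.1, 634.3 and 662.1 normalized counts in vehicle and at 497.5, 494.2 and 466.9 with wortmannin. All 3 treated libraries were lower, by a log2 difference of -0.45 ± 0.0798 (DESeq2 adjusted p = 2.7e-07).

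In HT29 AREG was at 1082, 836.4 and 875.9 normalized counts in vehicle and at 672.7, 691.8 and 702.3 with wortmannin. EREG was at 1707, 1872 and 1899 and at 1388, 1390 and 1299. Both genes had all treated libraries below all vehicle libraries, with log2 differences of -0.46 ± 0.110 (DESeq2 adjusted p = 0.000479) and -0.45 ± 0.0714 (adjusted p = 1.25e-08). ERBB2 in HT29 lay above vehicle in all 3 libraries, by 0.24 ± 0.0601 (DESeq2 adjusted p = 0.00115), and EGFR in SW1783 below it in all 3, by -0.10 ± 0.0269 (adjusted p = 0.000731).

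The response to wortmannin differed between the lines for HBEGF, at 172.1, 136.9 and 150.0 normalized counts in HT29 vehicle and 190.3, 171.6 and 181.0 with wortmannin, which overlapped. The difference (SW1783 minus HT29) was -0.70 ± 0.141 on the log2 scale (DESeq2 adjusted p = 2.15e-05), 1 member called against 3.42% of all genes (2.54% lower), and it held in all 17 alternatives. EGFR showed a smaller difference of -0.30 ± 0.107 (adjusted p = 0.0389), under the fold threshold.

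Around the members, 39 further genes of the pathway were listed by role, with earlier results of these data known. At the high dose of SW1783, 15 were called higher and 3 lower, where 8.39% of all genes were called higher and 9.26% lower, with a median log2 difference of 0.25. In HT29 4 were called higher and 0 lower, or 5 and 0 without replicate 2 of the high dose, where 1.38% of all genes were called higher and 1.78% lower, with a median of 0.09. The test of the difference between the lines called 16 of them, 13 higher and 3 lower in SW1783 where 14.6% of all genes were called (12 and 4 without that library, with 2 in place of 3 of the ligand release genes).

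Other ligands and receptors separated the lines. NRG1, which encodes neuregulin 1, a ligand of ERBB3 and ERBB4, was at 473.8, 437.9 and 453.1 normalized counts in SW1783 vehicle and listed at 0 in HT29 vehicle. ERBB3, a receptor that pairs with ERBB2, was at 4774 ± 193.9 (SD, n = 3) in HT29 and 2.1 ± 1.1 in SW1783, and ERBB4 was at 0 in HT29 vehicle and 0.8 ± 0.7 in SW1783. EPGN, the gene of epigen next to EREG on chromosome 4, was at 60.3 ± 5.3 in SW1783 and 1.0 ± 0.3 in HT29, the reverse of EREG and AREG. EGF fell at the high dose in SW1783, from 24.7, 27.8 and 18.3 normalized counts to 12.5, 2.9 and 14.1, with a log2 difference of -1.26 ± 0.514 (DESeq2 adjusted p = 0.0328).

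Of the 4 genes of ligand release, 3 were called higher at the high dose in SW1783 (8.39% of all genes). ADAM17, the main sheddase of these ligands, was at 1033, 967.9 and 1005 normalized counts in vehicle and 2334, 2315 and 2331 at the high dose. The treated libraries were all above 2 times the vehicle mean. ADAM17 rose by 1.24 ± 0.051 on the log2 scale (DESeq2 adjusted p = 9.26e-130), and RHBDF2 and RHBDF1, which encode the iRhom proteins that carry ADAM17 to the cell surface, by 0.90 ± 0.066 and 0.77 ± 0.085. ADAM10, a related sheddase, was lower by -0.30 ± 0.029, under the fold threshold. In HT29 none of the 4 was called by DESeq2 or edgeR (1 at an unadjusted p under 0.05), with ADAM17 at 0.32 ± 0.12. Of all genes tested there, 3.16% were called. The response of ADAM17 was larger in SW1783 by 0.87 ± 0.116 on the log2 scale (DESeq2 adjusted p = 1.61e-12).

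The group of ERK output genes had 15 members, of which 9 were called higher and 1 lower at the high dose in SW1783, against 8.39% and 9.26% of all genes. IER3, an early stress and growth factor response gene, rose from 31.4, 25.9 and 36.5 normalized counts to 341.2, 341.1 and 321.8, by 3.45 ± 0.218 on the log2 scale (DESeq2 adjusted p = 3.02e-55). DUSP5, a phosphatase of nuclear ERK, rose by 2.95 ± 0.086 and PHLDA1, an ERK-dependent gene, by 2.16 ± 0.042. FOS, an immediate early transcription factor, fell, with a log2 difference of -1.18 ± 0.368 (DESeq2 adjusted p = 0.00379). HT29 had 3 of the 15 called, all higher (1.38% of all genes), with DUSP5 at 0.97 ± 0.139, IER3 at 0.71 ± 0.108 and EGR1, a transcription factor of the early response whose groups overlapped, at 0.60 ± 0.199. At the medium dose DUSP5 was called in both lines, by 0.86 ± 0.093 in SW1783 and 0.66 ± 0.139 in HT29, and IER3 in SW1783 by 0.87 ± 0.242.

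Receptor inhibitors had 3 of 7 genes called higher (8.39% of all genes) and 1 lower (9.26%) at the high dose in SW1783. ERRFI1, whose product MIG6 binds and blocks the EGFR kinase, rose in both lines, by 0.83 ± 0.051 in SW1783 (DESeq2 adjusted p = 1.14e-58) and by 0.71 ± 0.055 in HT29 (adjusted p = 2.72e-35). Its response was not shown to differ between them (0.08 ± 0.066, adjusted p = 0.431). Among the LRIG genes, which encode membrane proteins and were listed in this group, LRIG2 rose by 0.65 ± 0.067 in SW1783. LRIG3 fell there by a log2 fold change of -0.69 ± 0.094. What the products of these 2 genes do to the receptors was not measured. None of the 5 adaptor genes was called at the high dose by DESeq2 or edgeR, with 3 in SW1783 and 2 in HT29 at an unadjusted p under 0.05. Of all genes, 17.6% were called at that dose in SW1783 and 3.16% in HT29.

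**Figure D4:**
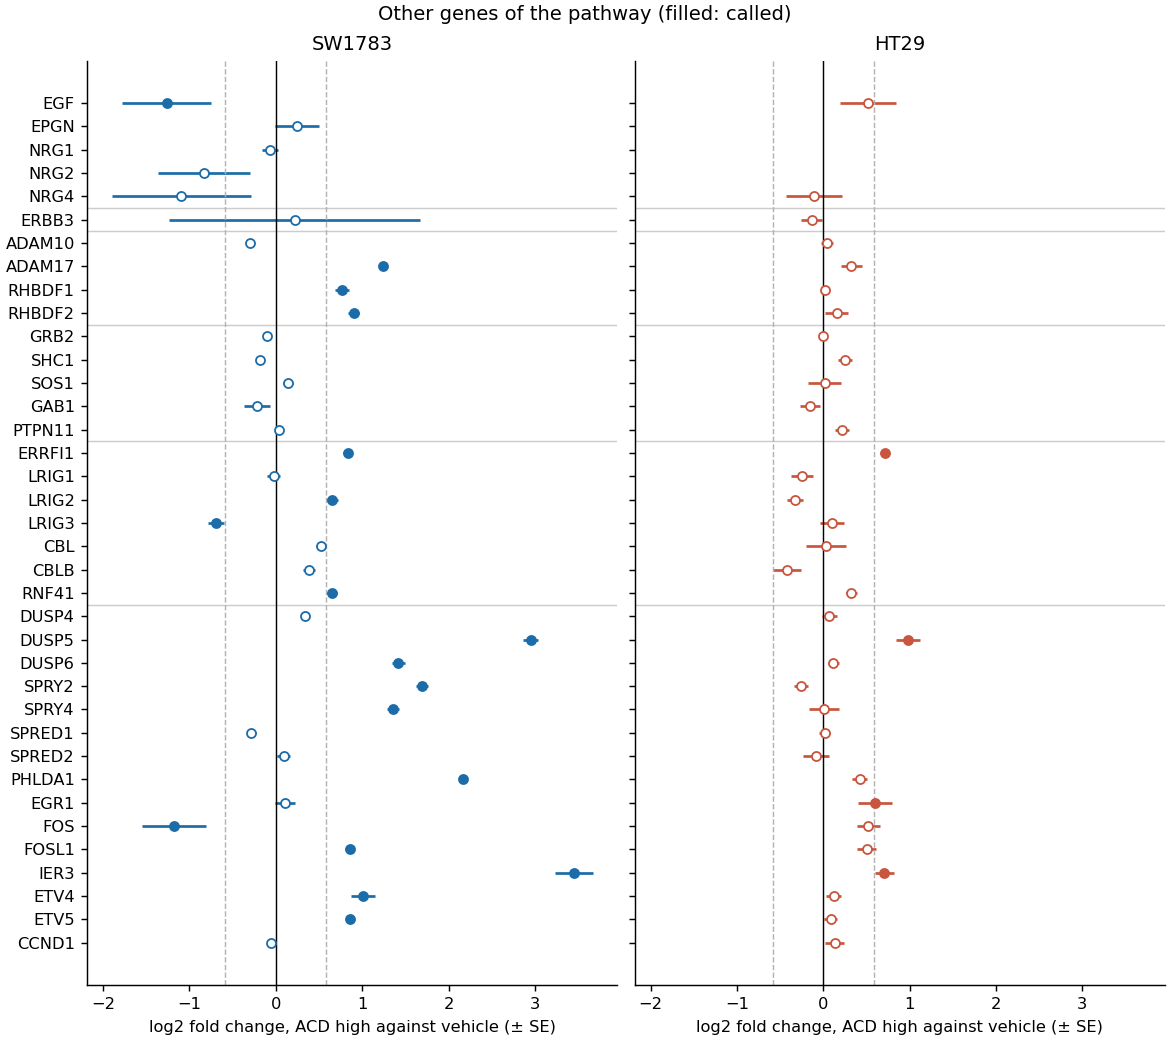
Log2 fold change (± SE) at the high dose of ACD against vehicle for the other genes of the pathway with an adjusted p, in SW1783 (left) and HT29 (right), with filled points for called genes, dashed lines at 1.5-fold and grey lines between other ligands, other receptors, ligand release, adaptors, receptor inhibitors and ERK output. IER3 and DUSP5 lie farthest to the right in SW1783, and DUSP5, ERRFI1, IER3 and EGR1 are the filled points in HT29.

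At the low dose none of the 39 genes was called by DESeq2 or edgeR in either line (6 in SW1783 and 5 in HT29 at an unadjusted p under 0.05). Of all genes, only 0.118% were called at that dose in SW1783 and 0.287% in HT29. With wortmannin, SW1783 had 3 called higher, all in the ERK output group, and 1 lower. Of all 14530 genes tested there, 2.71% were called, 253 higher and 141 lower. ETV4 rose by 0.71 ± 0.139 on the log2 scale, FOS by 0.70 ± 0.277 and EGR1 by 0.68 ± 0.089, while NRG1 fell by -0.61 ± 0.101 (DESeq2 adjusted p = 1.58e-08). In HT29 none was called with wortmannin by DESeq2 or edgeR (10 at an unadjusted p under 0.05, 2.74% of all genes called).

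Genes whose pattern was most like that of HBEGF, EREG or BTC, where called, were found by Pearson's r over the 18 libraries of a line, which share treatment groups, on log2(normalized count + 1) less the vehicle mean of the batch, among genes with a mean of 100 or more. For HBEGF in SW1783 these were BIRC2 (r = 0.983) and MFSD2A (r = 0.979), and for EREG RAPGEF2 (r = 0.939) and PHLDB2 (r = 0.921). In HT29 they were ASPH (r = 0.974) and ZC3H12A (r = 0.969) for EREG, and OSBPL9 (r = 0.892) and MARS2 (r = 0.891) for BTC. Between members, EREG in HT29 had r = 0.926 with TGFA, at rank 34 of 10849 genes, and r = 0.869 with AREG, its neighbour on the chromosome, at rank 146. HBEGF and EGFR in SW1783 had r = 0.934, at rank 261 of 11441 genes.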

How the data were processed

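The authors trimmed reads of directional mRNA libraries (MGI, paired ends) with Trim Galore 0.6.5, aligned them with STAR 2.7.3a to GRCh38 and quantified genes with RSEM 1.3.3, per the submitters' processing notes, and deposited RSEM expected counts per gene, not normalized. The treatment of reads with several positions was not given in the sources used here. Expected counts were rounded here, since 8.84% were not whole. The Wald test of DESeq2 1.42.0 (R 4.3.3, defaults, two-sided, Benjamini-Hochberg over all genes of a contrast) was fitted per line on the 12 libraries of batch B or the 6 of batch A, on 24 or 12 libraries for differences between lines, and was checked on simulated counts. The edgeR 4.0.16 quasi-likelihood test was an alternative. Transcript lengths came from GENCODE v44 and upstream sequences from RefSeq. All 7 members were described. Of the 39 other pathway genes, those called and among the 3 largest changes of their role in a contrast were named, with values also given for ADAM10, NRG1, EPGN, ERBB3 and ERBB4 for their roles. The members and lists were chosen with earlier results of these data known. Same-numbered replicates within a batch did not deviate together throughout (correlations from -0.48 to 0.36), so numbers were not used as pairs. In HT29 batch A the median correlation was 0.13 for equal and -0.04 for different numbers, with 2 of 3 pairs over 0.1. The other medians for equal numbers lay between -0.08 and 0.03. The genes of like pattern to AREG are not reported here.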

Additional observations from a re-analysis of the deposited data

Results flagged for a closer look

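In 6 cases the response of a member differed between the lines (SW1783 minus HT29, log2) by the DESeq2 adjusted p of the difference itself. EREG at the low dose and HBEGF with wortmannin were also over the fold threshold, and the others were not. Of all genes, 12.6% passed the adjusted p and were higher at the high dose and 15% lower. At the medium dose 6.53% were lower, and with wortmannin 9.96%. At the low dose 0.161% of all genes were called lower. HBEGF differed by 0.36 at the high dose of ACD, with adjusted p-values from 0.00445 to 0.0805 over 17 alternatives. TGFA differed by -0.45 at the high dose (3.2e-05 to 0.00502) and by -0.46 at the medium dose (0.000121 to 0.0219). EREG differed by -0.95 at the low dose (0.00386 to 0.147), where the SW1783 libraries lay below their vehicle and the HT29 libraries above theirs. With wortmannin HBEGF differed by -0.70 (3.1e-07 to 0.0272) and EGFR by -0.30 (0.000225 to 0.121).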

How the results depend on the processing

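With edgeR, TMM size factors, a low-count filter, no mitochondrial genes, all 18 libraries of a line, the vehicles of batch A or only the groups compared, calls on single members stayed on their side of the thresholds except for BTC, which edgeR called in SW1783 at the high dose and which lost its call in HT29 on only the groups compared. Without the fold threshold the members passing were 3 in place of 2 at the high dose in SW1783, 1 in place of 0 at the medium dose in SW1783, 4 in place of 2 from medium to high, 2 in place of 0 with wortmannin in SW1783, 5 in place of 3 at the high dose in HT29, 3 in place of 0 with wortmannin in HT29, and for differences between the lines 2 in place of 0 (high), 1 in place of 0 (medium) and 2 in place of 1 (wortmannin). With 1 library left out the count was 1 to 2 from medium to high in SW1783, 2 to 3 at the high dose in HT29 and 0 to 1 for the low dose difference between the lines. Within a batch the numbers were not used to pair the samples, whereas equally numbered vehicles of the 2 batches were alike. With a replicate block 0 members were called between those vehicles, but most had no adjusted p and could not be called. DESeq2 gave an adjusted p there only for ERBB2 and EGFR in SW1783 and for ERBB2 in HT29. The block left 1 in place of 2 called from medium to high in SW1783, where EREG had an adjusted p of 0.0579 in DESeq2, and it changed no other call. No called value reversed its sign. Depth limited BTC most in SW1783, where its log2 difference at the high dose had an SE of 0.656, and AREG there could not be assessed.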
